A study of Homo sapiens with 6 samples.

Results

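The epidermal differentiation complex, a dense cluster of genes on chromosome 1, and the genes of the desmosome were followed in SCC25 cells, a human squamous carcinoma line of the tongue. Members were the protein-coding genes of the array whose single symbol begins with SPRR, LCE or S100A and a digit, together with involucrin, loricrin, 4 genes of the filaggrin family, 3 transglutaminases, the desmogleins, the desmocollins, desmoplakin, plakoglobin and plakophilins 1 to 3. This rule used no measured value, and it found 65 genes with 1 transcript cluster each among the 67528 clusters of the array. They were 18 late cornified envelope (LCE) genes, 10 small proline-rich (SPRR) genes, 2 genes for involucrin and loricrin, 4 filaggrin family genes, 3 transglutaminases, 16 S100A genes, 7 desmosomal cadherins and 5 desmosomal plaque genes. All 65 were measured on every array, and no filter on low values was applied.

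Total RNA of the cells was hybridised to GeneChip HTA 2.0 arrays. The TM group (3 arrays) was given tunicamycin at 5 µg mL−1 for 6 h, and the control group (3 arrays) was given 0.1% DMSO, the solvent, for 6 h. Both groups were the same line in DMEM/F12 medium with serum, and the design text calls the 3 arrays of each group independent biological replicates. In the TM samples 1 label field reads SCC28 and the others read SCC25, the name used by the paper. A single cell line under 1 dose and 1 time limits what the groups stand for.

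Tunicamycin blocks the first step of N-linked glycosylation, and unfolded glycoproteins then load the endoplasmic reticulum (ER). DDIT3, HERPUD1 and HSPA5, genes induced by ER stress, were therefore read in every array as a check of the labels. DDIT3 had log2 signals of 9.04, 8.88 and 5.86 in TM replicates 1, 2 and 3, against 6.02, 6.01 and 9.28 in control replicates 1, 2 and 3. HERPUD1 and HSPA5 had the same order, with the array labelled TM 3 near control 1 and 2 and the array labelled control 3 near TM 1 and 2. The labels of these 2 arrays are therefore in doubt, and whether they were exchanged was not tested. Every array was used under its own label, so each fold change and count over 6 arrays rests on the labels in doubt and would differ if they were exchanged, while those over replicates 1 and 2 do not use these arrays. The counts over all members below are given over all 6 arrays and again over replicates 1 and 2 alone (2 TM and 2 control arrays). Some results for roles, families, signal bands, gene order and single genes are given over 6 arrays only. The median log2 signal of an array over all clusters was 5.49, 5.52 and 5.52 in the TM arrays, against 5.45, 5.48 and 5.39 in the control arrays.

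The keratinocyte identity of the samples was read from 6 of the 9 marker genes listed for it, and all 6 had a signal above the array-wide median, as for the basal keratins KRT5 (13.19, 13.14 and 13.21 in the TM arrays, against 13.19, 13.17 and 13.21 in the control arrays) and KRT14 (12.66, 12.63 and 12.76 in the TM arrays, against 12.79, 12.70 and 12.64 in the control arrays). So had 3 of 5 fibroblast, 3 of 4 leukocyte, 2 of 4 endothelial and 0 of 3 melanocyte markers, so a signal above that median does not by itself separate cell types. The median of the mean signals was 11.55 for the 6 keratinocyte markers. It was 5.99 for the fibroblast, 5.60 for the leukocyte, 5.16 for the endothelial and 3.69 for the melanocyte markers. KRT6A, KRT17 and TP63 were not analysed here.

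In stratified squamous epithelium, keratinocytes that leave the basal layer build a cornified envelope beneath the plasma membrane. Involucrin and other scaffold proteins are laid down first, transglutaminases cross-link loricrin, SPRR and LCE proteins onto them, and filaggrin bundles the keratin filaments inside. Desmosomes hold the cells together. Their cadherins, the desmogleins and desmocollins, meet between cells, and plakoglobin, the plakophilins and desmoplakin tie them to the keratin filaments. S100A proteins are small calcium-binding proteins, several of them abundant in differentiating or inflamed epidermis.

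Over 6 arrays, 17 of 18 LCE genes and 10 of 10 SPRR genes had a log2 fold change (TM minus control) above 0, whereas desmosome genes lay on both sides of 0. With all 6 arrays, 0 of the 65 members passed an adjusted p of 0.05 (limma, Benjamini-Hochberg over all clusters), and 0 of all clusters did (0%). The lowest adjusted p of a member was 0.143. At an unadjusted p under 0.05, 21 members were higher and 1 was lower in TM, beside 15.3% and 5.14% of all clusters and 17.2% and 5.95% of the 18212 protein-coding clusters. With the added condition of a fold change of at least 1.2, 10 members were higher and 0 were lower, beside 4.24% and 1.68% of all clusters and 2.27% and 0.494% of protein-coding clusters. These 10 were 9 LCE genes and SPRR1B. Their number was 4 after quantile normalization, 2 after centring each array on its median, 2 without TM 2, 6 without TM 1 and 15 without TM 3. In 24 members every TM array was above every control array and in 2 every TM array was below, beside 20.5% and 7.49% of all clusters and 27.2% and 11.3% of protein-coding clusters. A log2 fold change above 0 was found for 51 members and below 0 for 14, beside 61.2% and 38.8% of all clusters and 59.9% and 40.1% of protein-coding clusters, while after centring 39 members were above 0 and 26 below. The median log2 fold change was 0.12 over the members, 0.04 over all clusters and 0.03 over the protein-coding clusters. In RNA of a whole culture, more cells that express a gene and more RNA of it per cell cannot be told apart.

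In replicates 1 and 2 alone, LCE1A, LCE1C and TGM1 rose past the adjusted threshold and 0 members fell, beside 0.546% of all clusters higher and 0.675% lower and 1.03% and 0.329% of protein-coding clusters. At an unadjusted p under 0.05, 23 members were higher and 2 were lower, beside 14.8% and 12.1% of all clusters and 18% and 9.96% of protein-coding clusters. At an unadjusted p under 0.05 with a fold change of at least 1.2, 15 members were higher and 0 were lower, beside 6.96% and 7.6% of all clusters and 6.35% and 3.95% of protein-coding clusters. The groups did not overlap for 41 members on the higher side and 6 on the lower side, beside 36% and 24.5% of all clusters and 47.6% and 24.9% of protein-coding clusters. A log2 fold change above 0 was found for 52 members and below 0 for 13, beside 58.7% and 41.3% of all clusters and 63.9% and 36.1% of protein-coding clusters. The median log2 fold change of the members was again 0.12, that of all clusters 0.04 and that of protein-coding clusters 0.05. With the replicate number added to the fit (a replicate block), 0 members passed. With 1 of TM 1, TM 2, control 1 or control 2 left out, a group holds a single array, which cannot decide whether the calls hold. The log2 fold change was then 0.56 to 0.63 for LCE1A, 0.51 to 0.52 for LCE1C and 0.44 to 0.51 for TGM1.

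**Figure D1:**
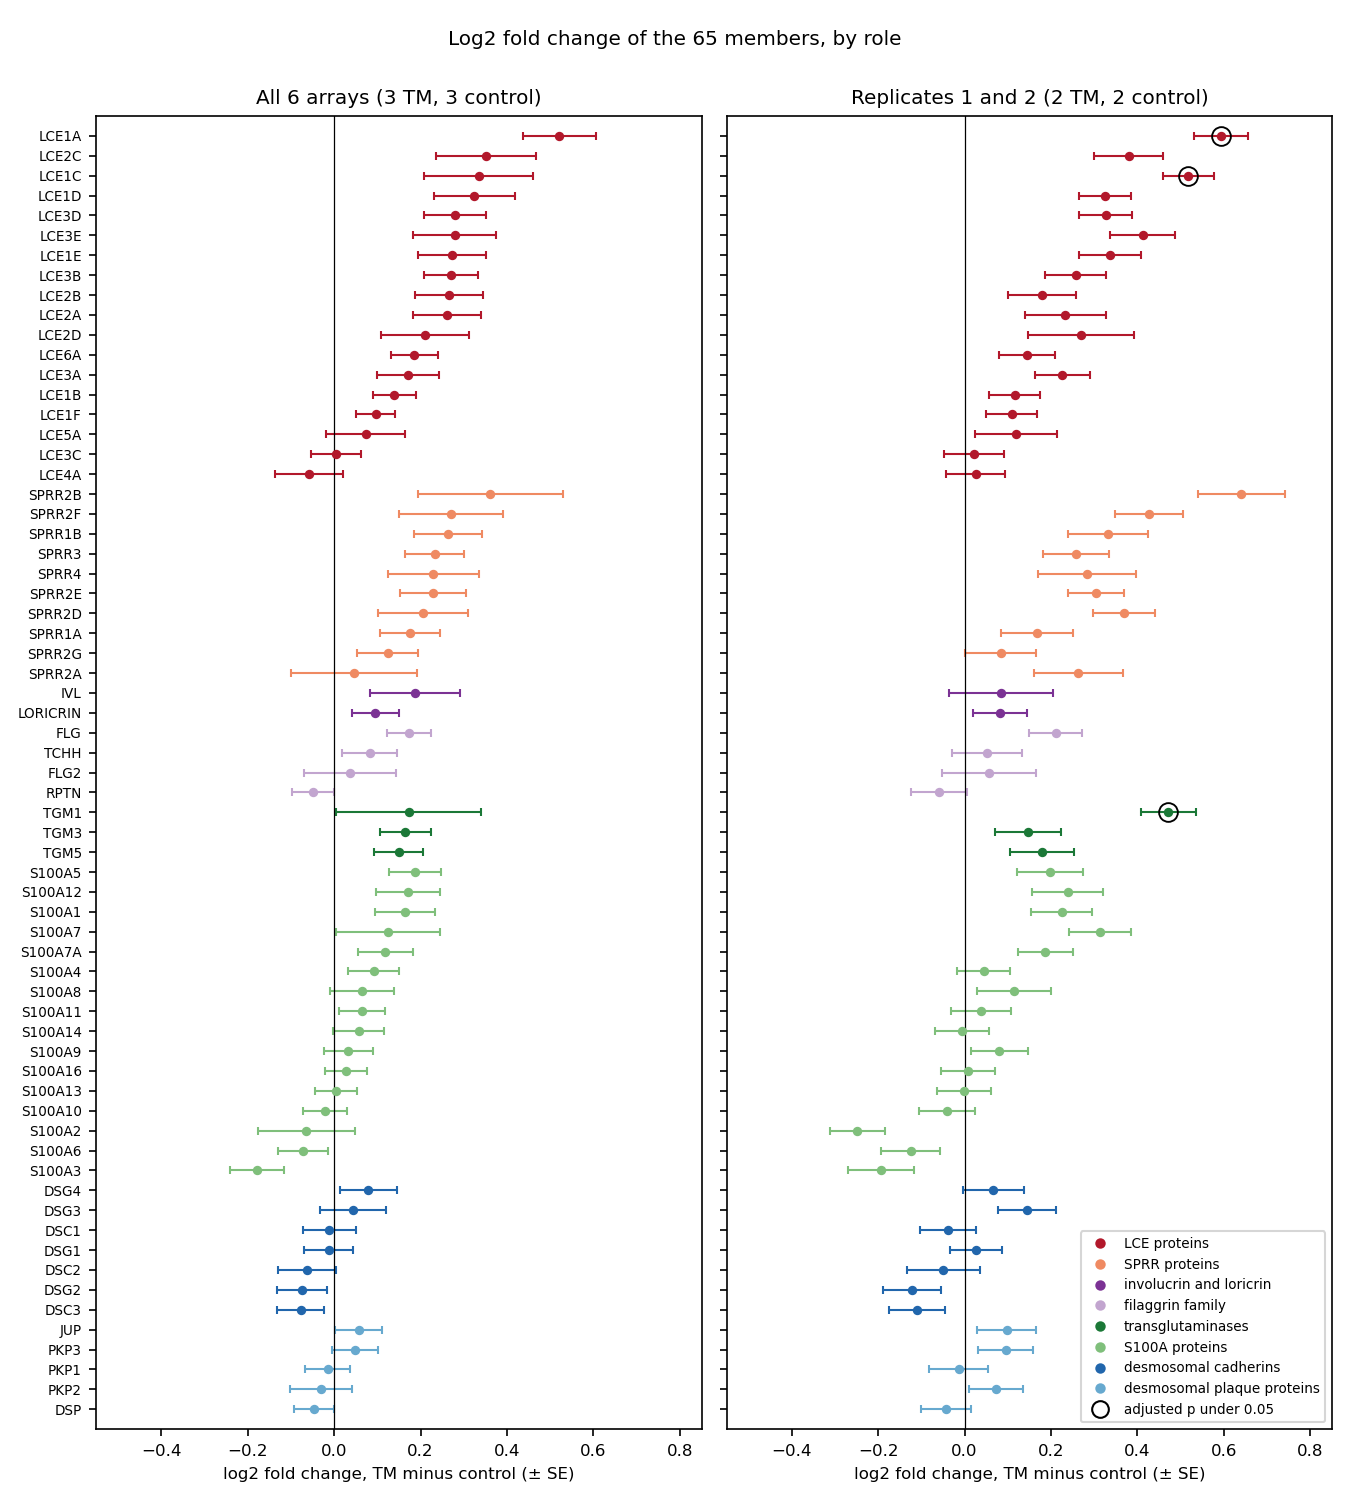
Log2 fold change, TM minus control, of the 65 members with its standard error, grouped by role (left, all 6 arrays; right, replicates 1 and 2; open rings mark an adjusted p under 0.05 by limma). Of the 18 LCE genes 17 lie above 0 over 6 arrays, all 10 SPRR genes do, and the 12 desmosome genes lie close to 0, with LCE1A, LCE1C and TGM1 ringed on the right.

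LCE proteins are small, cysteine-rich and late additions to the envelope. Of the 18 LCE genes, 17 had a log2 fold change above 0 over 6 arrays, beside 61.2% of all clusters and 59.9% of protein-coding clusters. In 13 every TM array was above every control array, beside 20.5% and 27.2%. Among protein-coding clusters with a mean log2 signal of 5 to 7, the latter share was 49.5%. The median log2 fold change of the 18 LCE genes was 0.26 over 6 arrays and 0.24 in replicates 1 and 2, with a range of -0.06 to 0.52 over 6 arrays. LCE1A had log2 signals of 6.40, 6.36 and 6.11 in the TM arrays, against 5.75, 5.82 and 5.73 in the control arrays. All 3 TM values lay above all 3 control values, with TM 3 the lowest of the TM arrays. The log2 fold change was 0.52 (SE 0.09, adjusted p = 0.143) over 6 arrays and 0.59 (SE 0.06, adjusted p = 0.0351) in replicates 1 and 2, by limma. LCE1C had 6.43, 6.44 and 5.98 in the TM arrays, against 5.92, 5.92 and 6.02 in the control arrays. Here TM 3 lay among the control arrays, and the log2 fold change was 0.33 (SE 0.13, adjusted p = 0.212) over 6 arrays and 0.52 (SE 0.06, adjusted p = 0.0371) in replicates 1 and 2.

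The 6 LCE1 genes had log2 fold changes of 0.10 to 0.52 over 6 arrays, and in 5 of them the groups did not overlap, LCE1C being the exception. LCE1D had 6.27, 6.25 and 6.03 in the TM arrays, against 5.91, 5.95 and 5.70 in the control arrays. All 4 LCE2 genes had groups that did not overlap, with log2 fold changes of 0.21 to 0.35. LCE2C had 6.29, 6.45 and 6.05 in the TM arrays, against 5.96, 6.02 and 5.76 in the control arrays, a log2 fold change of 0.35 (SE 0.12) over 6 arrays and 0.38 (SE 0.08) in replicates 1 and 2. In the LCE3 family, whose genes are known to be induced in injured and inflamed skin, 3 of 5 had groups that did not overlap. LCE3B had 8.26, 8.28 and 8.20 in the TM arrays, against 7.95, 8.08 and 7.90 in the control arrays, so that TM 3 sat with the other TM arrays. Its log2 fold change was 0.27 (SE 0.06, adjusted p = 0.143 by limma). LCE3D and LCE3E had log2 fold changes of 0.28 each over 6 arrays (SE 0.07 and 0.10) and of 0.33 and 0.41 in replicates 1 and 2 (SE 0.06 and 0.08). LCE3C was at 0.01 (SE 0.06, 95% interval -0.13 to 0.14) over 6 arrays. LCE4A was at -0.06 (SE 0.08) over 6 arrays and at 0.03 (SE 0.07) in replicates 1 and 2, and was the single LCE gene below 0 over 6 arrays. LCE6A, beside the LCE1 genes, had 5.20, 5.25 and 5.25 in the TM arrays, against 5.04, 5.12 and 4.99 in the control arrays.

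The TM 3 array was the lowest of the TM arrays for 16 of the 18 LCE genes, beside 36.4% of all clusters and 46.43% of protein-coding clusters. The control 3 array was the highest control for 2 of them, beside 27.75% and 37.97%, and the lowest control for 11 of them, beside 46.97% and 39.52%. For 2 of the 18, TM 3 was the lowest TM array and control 3 the highest control, as for DDIT3. When every array was quantile normalized, 16 of the 18 LCE genes stayed above 0 and 8 had groups that did not overlap, and the same 2 counts were found after centring each array on its median. Over all clusters the share with every TM array higher was 13.1% and 8.26% under these scalings, and over protein-coding clusters 18.3% and 9.98%. LCE genes of 1 family are close copies of each other, so probes of 1 gene may pick up RNA of another, and the single genes of a family cannot be told apart with certainty.

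The promoters of LCE1A, LCE1C, SPRR1B and SPRR2B are printed because LCE1A and LCE1C are the LCE genes called in replicates 1 and 2, SPRR2B has the largest log2 fold change there, and SPRR1B is the SPRR gene that met the p and fold thresholds over 6 arrays (RefSeq, GRCh38.p14, 250 bases before to 50 bases after the annotated start, 5′ to 3′). The windows are chr1:152827223-152827522 on the plus strand, chr1:152806602-152806901 on the minus strand, chr1:153030953-153031252 on the plus strand and chr1:153071562-153071861 on the minus strand. Capitals mark matches on either strand to 5 motifs, which are AP-1 (TGANTCA), the CRE (TGACGTCA), the composite C/EBP-ATF element (TGATGNAA), the ER stress element and the TATA box (TATAAA).
LCE1A: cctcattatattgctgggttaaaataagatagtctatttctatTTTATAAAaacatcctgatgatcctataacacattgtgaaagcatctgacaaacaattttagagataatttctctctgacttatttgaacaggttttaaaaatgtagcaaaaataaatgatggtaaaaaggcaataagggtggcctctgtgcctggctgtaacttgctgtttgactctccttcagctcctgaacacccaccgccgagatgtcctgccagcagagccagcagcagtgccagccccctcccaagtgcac
LCE1C: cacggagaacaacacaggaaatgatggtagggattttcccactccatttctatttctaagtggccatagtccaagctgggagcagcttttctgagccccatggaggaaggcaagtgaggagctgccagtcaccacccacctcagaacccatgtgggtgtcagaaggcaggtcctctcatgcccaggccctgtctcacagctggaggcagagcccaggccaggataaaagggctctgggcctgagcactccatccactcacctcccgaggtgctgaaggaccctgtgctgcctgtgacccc
SPRR1B: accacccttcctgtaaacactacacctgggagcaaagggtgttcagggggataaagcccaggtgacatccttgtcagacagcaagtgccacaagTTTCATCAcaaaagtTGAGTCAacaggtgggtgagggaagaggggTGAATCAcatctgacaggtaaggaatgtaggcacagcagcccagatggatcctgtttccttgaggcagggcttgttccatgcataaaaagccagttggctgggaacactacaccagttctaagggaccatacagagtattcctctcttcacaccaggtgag
SPRR2B: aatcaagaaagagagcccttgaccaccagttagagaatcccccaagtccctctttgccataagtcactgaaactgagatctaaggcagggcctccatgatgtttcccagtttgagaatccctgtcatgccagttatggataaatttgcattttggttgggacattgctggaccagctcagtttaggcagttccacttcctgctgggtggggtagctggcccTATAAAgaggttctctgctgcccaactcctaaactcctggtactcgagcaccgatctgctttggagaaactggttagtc
In LCE1A the capitals are 2 overlapping TATAAA matches, 1 on each strand, at -207 to -202 and -205 to -200, with the start base counted as 0. The annotated start base of LCE1A is the A of an ATG. Its record may therefore begin at the start codon, and its window may not be the promoter. LCE1C held none of the 5 motifs in its window. SPRR1B held 2 AP-1 matches at -141 to -135 and -111 to -105 and a composite C/EBP-ATF match at -156 to -149, which do not overlap. SPRR2B held a TATAAA at -29 to -24.

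A promoter of this length was given for 58 of the 65 members. AP-1 is the element bound by JUN and FOS proteins, and it has long been studied in the involucrin and SPRR genes. It was present in 15 of the 58 windows (25.9%), beside 7.71% of all 35116 promoters. By role it was in 6 of 8 SPRR windows, in both involucrin and loricrin, in 4 of 4 filaggrin family windows and in 3 of 16 S100A windows. It was in 0 of 17 LCE, 0 of 9 desmosome and 0 of 2 transglutaminase windows. TATAAA was in 25 of the 58 (43.1%), beside 11.5% of all promoters, with 7 of 8 SPRR and 8 of 17 LCE windows among them and 0 of 9 desmosome windows. The composite element was in 5 windows (8.62%, beside 3.62%), those of SPRR1B, SPRR4, LORICRIN, FLG2 and DSG3. The CRE and the ER stress element matched in 0 of the 58, beside 1.85% and 0.0769% of all promoters. These matches are letters in a window only, and the motifs were chosen with the values of the genes known. Each window follows the annotated start, which in LCE1A may be the start codon. How many other windows share this limit was not examined.

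SPRR proteins are cross-linked as bridges between envelope proteins. All 10 SPRR genes had a log2 fold change above 0 over 6 arrays, with a median of 0.23 and a range of 0.05 to 0.36, and in replicates 1 and 2 the median was 0.29. In 4 of the 10 every TM array was higher over 6 arrays, beside 20.5% of all clusters and 27.2% of protein-coding clusters. In replicates 1 and 2 it was 9 of the 10, beside 36% and 47.6%. SPRR1B, whose promoter holds the 2 AP-1 matches, had 7.75, 7.91 and 7.77 in the TM arrays, against 7.58, 7.41 and 7.64 in the control arrays. The groups did not overlap, and the log2 fold change was 0.26 (SE 0.08, adjusted p = 0.167) over 6 arrays and 0.33 (SE 0.09, adjusted p = 0.109) in replicates 1 and 2, by limma. SPRR1A had 7.36, 7.50 and 7.35 in the TM arrays, against 7.33, 7.19 and 7.16 in the control arrays. SPRR3 had 5.65, 5.75 and 5.56 in the TM arrays, against 5.38, 5.50 and 5.37 in the control arrays.

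In 4 of the 6 SPRR2 genes (SPRR2A, SPRR2B, SPRR2D and SPRR2F) control 3 lay above TM 3. SPRR2B had 5.18, 5.27 and 4.77 in the TM arrays, against 4.45, 4.71 and 4.96 in the control arrays. The groups overlapped over 6 arrays with a log2 fold change of 0.36 (SE 0.17, adjusted p = 0.276). Replicates 1 and 2 alone gave 0.64 (SE 0.10, adjusted p = 0.0545 by limma), the largest of the 65 members and short of the threshold. SPRR2F had 4.39, 4.54 and 4.41 in the TM arrays, against 4.08, 3.99 and 4.45 in the control arrays, and 0.43 (SE 0.08) in replicates 1 and 2. SPRR2D had 5.08, 5.21 and 4.85 in the TM arrays, against 4.75, 4.80 and 4.97 in the control arrays, and 0.37 (SE 0.07) in replicates 1 and 2. In SPRR2A, at 5.15, 5.40 and 5.06 in the TM arrays and 4.95, 5.08 and 5.45 in the control arrays, control 3 was the highest of all 6 arrays. For SPRR2G the log2 fold change was 0.12 (SE 0.07) over 6 arrays and 0.08 (SE 0.08) in replicates 1 and 2, the smallest of the SPRR genes there. SPRR4 had 6.27, 6.57 and 6.17 in the TM arrays, against 6.09, 6.18 and 6.05 in the control arrays. With quantile normalization or centring, 9 of the 10 SPRR genes stayed above 0 over 6 arrays. Every TM array was then higher in 2 and 1 of the 10 (20% and 10%). These shares were near those of protein-coding clusters under the same scalings (18.3% and 9.98%), beside 13.1% and 8.26% of all clusters. The SPRR2 genes, like S100A7 and S100A7A, are near-identical in sequence, and the limit stated for the LCE families holds for them too.

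**Figure D2:**
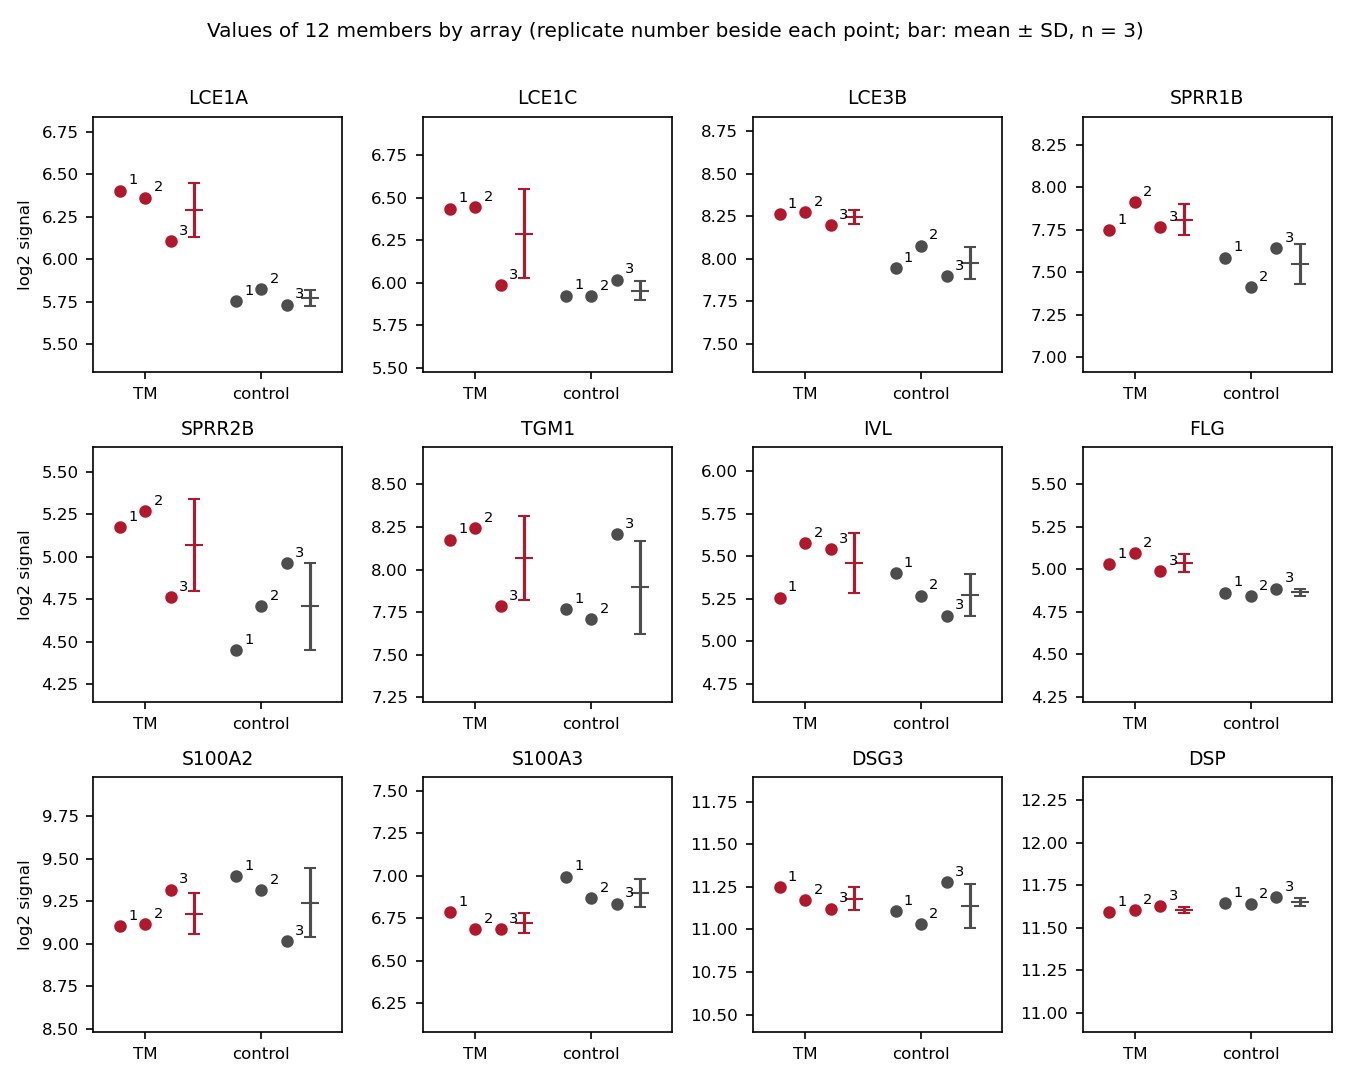
Log2 signal of 12 members in each array, with TM at the left and control at the right of each panel, replicate numbers beside the points, bars at the mean with the SD (n = 3), and panels that all span 1.5 log2 units. LCE1A, LCE3B, SPRR1B and FLG have every TM array above every control array, and in TGM1 and SPRR2B the array labelled control 3 lies above TM 3.

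No call was made among involucrin, loricrin and the filaggrin family. Involucrin (IVL), the early scaffold, had 5.26, 5.58 and 5.54 in the TM arrays, against 5.40, 5.27 and 5.15 in the control arrays, with TM 1 inside the control range. Its log2 fold change was 0.19 (SE 0.10, 95% interval -0.06 to 0.43) over 6 arrays and 0.08 (SE 0.12) in replicates 1 and 2. Loricrin (LORICRIN), the main protein of the mature epidermal envelope, had 6.98, 7.02 and 6.94 in the TM arrays, against 6.89, 6.95 and 6.82 in the control arrays, a log2 fold change of 0.10 (SE 0.05, 95% interval -0.03 to 0.23). Filaggrin (FLG) had 5.03, 5.10 and 4.99 in the TM arrays, against 4.86, 4.84 and 4.89 in the control arrays. Its groups did not overlap, and its log2 fold change was 0.17 (SE 0.05, adjusted p = 0.162) over 6 arrays and 0.21 (SE 0.06, adjusted p = 0.115) in replicates 1 and 2, by limma. Trichohyalin (TCHH), known from the hair follicle, was at 0.08 (SE 0.06), FLG2 at 0.04 (SE 0.11) and repetin (RPTN) at -0.05 (SE 0.05) over 6 arrays.

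Of the transglutaminases, TGM1 is the membrane-bound enzyme of keratinocytes, and its loss causes lamellar ichthyosis. TGM1 had 8.18, 8.24 and 7.78 in the TM arrays, against 7.77, 7.71 and 8.21 in the control arrays. The array labelled TM 3 matched control 1 and 2, and the array labelled control 3 matched TM 1 and 2, the order seen for DDIT3. Over 6 arrays the log2 fold change was 0.17 (SE 0.17, adjusted p = 0.580), and in replicates 1 and 2 it was 0.47 (SE 0.06, 95% interval 0.31 to 0.63, adjusted p = 0.0486 by limma). TGM3, which acts in the upper epidermis and hair follicle, had 5.52, 5.55 and 5.53 in the TM arrays, against 5.31, 5.47 and 5.32 in the control arrays. TGM5 had 5.43, 5.48 and 5.42 in the TM arrays, against 5.21, 5.34 and 5.32 in the control arrays. In both genes the groups did not overlap, the replicate 3 arrays sat with their labels, and the log2 fold change was 0.17 (SE 0.06) for TGM3 and 0.15 (SE 0.06) for TGM5 over 6 arrays.

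Most LCE and SPRR genes had a mean log2 signal below 7, where protein-coding clusters were more often higher in TM than at higher signals. LCE2B, LCE3A, LCE3B, SPRR1A and SPRR1B lay between 7 and 9. Among protein-coding clusters with a mean log2 signal of 5 to 7, 49.5% had every TM array above every control array and the median log2 fold change was 0.11. Of the 25 members in that band, 16 (64%) had every TM array higher, and their median was 0.19. Below 5, 4 of 16 members (25%) had every TM array higher, beside 29.6% of protein-coding clusters, with medians of 0.12 and 0.06. From 7 to 9 it was 4 of 15 members (26.7%), beside 16.6%, with medians of 0.06 and -0.01, and every TM array was lower for 0 of the 15, beside 16.6%. From 9 upward it was 0 of 9 members, beside 1.93%, and 1 of 9 members had every TM array lower, beside 20.0%. The medians there were -0.03 for the members and -0.04 for protein-coding clusters. These values are over 6 arrays. In replicates 1 and 2 every TM array was higher for 56.3%, 84%, 53.3% and 33.3% of members from the lowest to the highest band. Among protein-coding clusters it was 49.1%, 63.9%, 40.3% and 28.4%. Most markers of cells that the culture should lack lay on the same side as the LCE genes. The fibroblast markers DCN and LUM lay on the other side, at -0.16 and -0.18 over 6 arrays. All 4 endothelial markers had every TM array higher, with summed log2 signals of 20.7 to 20.8 in the TM arrays and 20.0 to 20.2 in the control arrays. So did 2 of 3 melanocyte markers (sums of 12.5 to 12.8 in the TM arrays and 12.2 to 12.3 in the control arrays) and 1 of 4 leukocyte markers (20.5 to 20.8 in the TM arrays and 20.1 to 20.4 in the control arrays). Of 5 fibroblast markers, 3 had every TM array higher and 1 every TM array lower (29.9 to 30.4 in the TM arrays and 29.8 to 30.4 in the control arrays). The median of their mean signals was 5.16 for the endothelial list, 3.69 for the melanocyte list, 5.60 for the leukocyte list and 5.99 for the fibroblast list. The part of signal level, or of these markers, in the LCE and SPRR values was not tested.

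**Figure D3:**
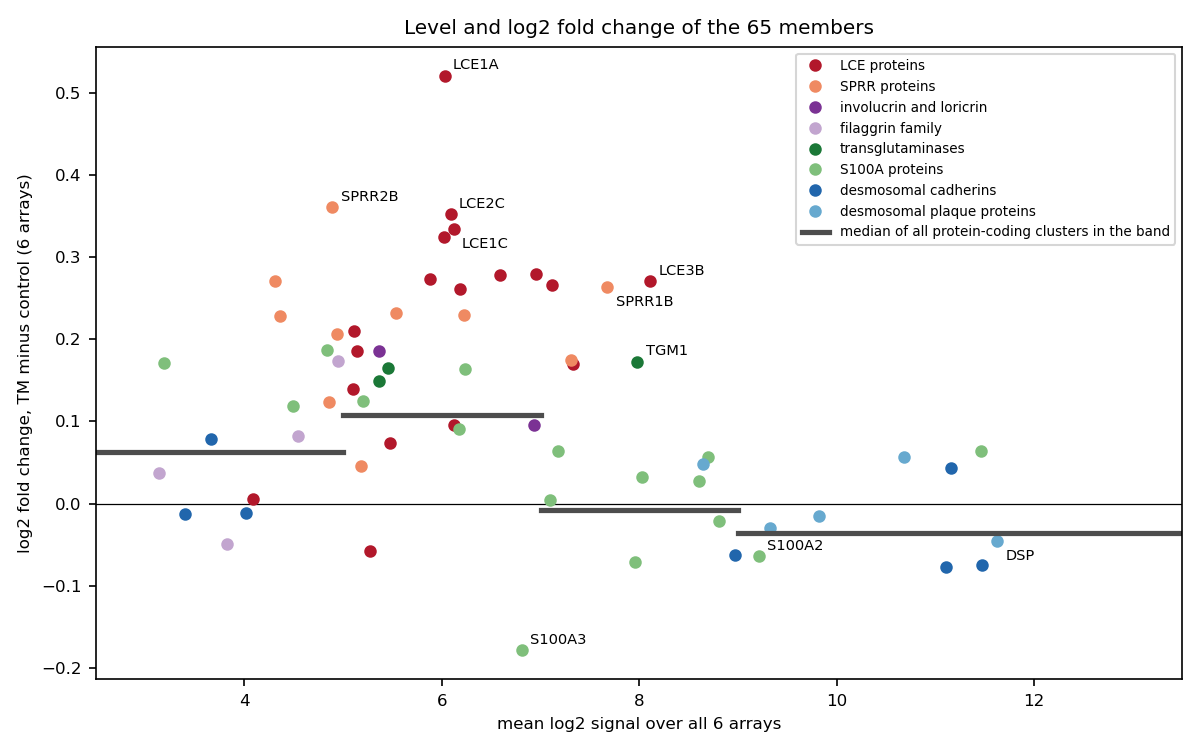
Mean log2 signal over the 6 arrays (horizontal) and log2 fold change, TM minus control (vertical), of the 65 members, coloured by role, with horizontal lines at the median of all protein-coding clusters in each band of signal. The lines stand at 0.06, 0.11, -0.01 and -0.04 from the lowest to the highest band, LCE1A stands highest at 0.52 and S100A3 lowest at -0.18.

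The S100A genes, which flank the envelope genes on both sides, lay on both sides of 0. Over 6 arrays 12 of 16 were above 0 and 4 below, with a median log2 fold change of 0.06 that became -0.01 when each array was centred on its median. In 4 genes (25%) every TM array was higher and in 1 (6.25%) every TM array was lower, shares near those of protein-coding clusters (27.2% and 11.3%) and of all clusters (20.5% and 7.49%). The gene with every TM array lower was S100A3, known from the hair cuticle, with 6.79, 6.69 and 6.69 in the TM arrays, against 6.99, 6.87 and 6.83 in the control arrays. Its log2 fold change was -0.18 (SE 0.06, adjusted p = 0.198) over 6 arrays and -0.19 (SE 0.08, adjusted p = 0.184) in replicates 1 and 2, by limma. S100A2, a protein of basal keratinocytes, had 9.10, 9.12 and 9.32 in the TM arrays, against 9.40, 9.32 and 9.01 in the control arrays. TM 3 lay near control 2 and control 3 was the lowest of all 6 arrays. The log2 fold change was -0.06 (SE 0.11) over 6 arrays and -0.25 (SE 0.06, adjusted p = 0.0951 by limma) in replicates 1 and 2. S100A5 had 4.84, 5.00 and 4.95 in the TM arrays, against 4.74, 4.71 and 4.79 in the control arrays, and was the S100A gene with the highest log2 fold change over 6 arrays, 0.19 (SE 0.06, adjusted p = 0.179). S100A7 (psoriasin), an antimicrobial protein of inflamed skin, had 5.46, 5.32 and 5.00 in the TM arrays, against 5.09, 5.07 and 5.26 in the control arrays. It stood at 0.12 (SE 0.12) over 6 arrays and at 0.31 (SE 0.07, adjusted p = 0.0831) in replicates 1 and 2. The calprotectin genes S100A8 and S100A9 had log2 fold changes of 0.06 (SE 0.07) and 0.03 (SE 0.06) over 6 arrays. S100A10, the partner of annexin A2, was at -0.02 (95% interval -0.14 to 0.10) and S100A11 at 0.06 (95% interval -0.06 to 0.19).

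**Figure D4:**
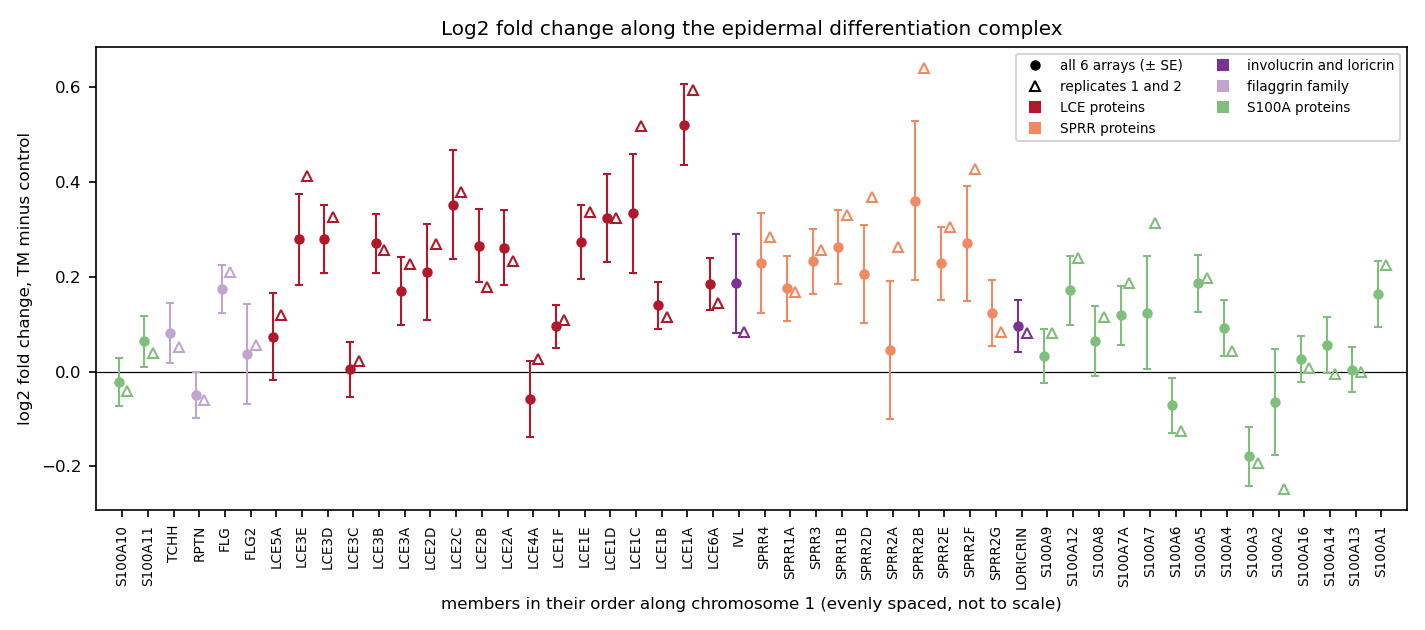
Log2 fold change, TM minus control, of the 50 members of the complex in their order along chromosome 1 (filled points with SE, all 6 arrays; open triangles, replicates 1 and 2), spaced evenly and not by distance. The LCE and SPRR genes in the middle lie mostly above 0, with LCE1A at 0.52 and LCE4A at -0.06 over 6 arrays, and S100A3 and S100A2 near the right end lie below 0.

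Along chromosome 1 the complex runs from S100A10 and S100A11 through the filaggrin family, the LCE genes, involucrin, the SPRR genes and loricrin to the other S100A genes (order from RefSeq). Of these 50 members, 22 had every TM array higher and 1 had every TM array lower, beside 20.5% and 7.49% of all clusters and 27.2% and 11.3% of protein-coding clusters. The longest unbroken run of neighbours with every TM array higher was 4 genes. That run was LCE2D, LCE2C, LCE2B and LCE2A. LCE4A follows next and had overlapping groups.

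Desmosome genes lay close to 0. In either fit 0 of the 12 reached an unadjusted p of 0.05, with 4 above 0 and 8 below over 6 arrays, and the median log2 fold change was -0.01 over 6 arrays and 0.01 in replicates 1 and 2. The 95% intervals of the 12 over 6 arrays lay between -0.22 and 0.23. Desmoplakin (DSP), the linker to keratin filaments, had 11.59, 11.60 and 11.63 in the TM arrays, against 11.64, 11.64 and 11.68 in the control arrays. Every TM array was lower, by a log2 fold change of -0.05 (SE 0.05, 95% interval -0.15 to 0.06). Plakoglobin (JUP) had 10.75, 10.71 and 10.67 in the TM arrays, against 10.69, 10.57 and 10.69 in the control arrays, a log2 fold change of 0.06 (SE 0.06). Plakophilin 1 (PKP1), a plaque protein of stratified epithelia, had 9.79, 9.85 and 9.82 in the TM arrays, against 9.89, 9.78 and 9.83 in the control arrays, a log2 fold change of -0.02 (95% interval -0.14 to 0.11). PKP2 and PKP3 were at -0.03 (SE 0.07) and 0.05 (SE 0.05) over 6 arrays and at 0.07 and 0.09 (SE 0.06 each) in replicates 1 and 2.

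Of the desmosomal cadherins, which are N-glycosylated membrane proteins, DSG3, the pemphigus vulgaris antigen, had 11.25, 11.17 and 11.12 in the TM arrays, against 11.11, 11.03 and 11.28 in the control arrays. Its log2 fold change was 0.04 (SE 0.08, 95% interval -0.14 to 0.22) over 6 arrays and 0.14 (SE 0.07, adjusted p = 0.238 by limma) in replicates 1 and 2, where its groups did not overlap. DSG2 had 11.44, 11.35 and 11.51 in the TM arrays, against 11.55, 11.48 and 11.49 in the control arrays, and DSC3 had 11.07, 10.99 and 11.14 in the TM arrays, against 11.16, 11.12 and 11.15 in the control arrays. DSG2 was at -0.07 (SE 0.06) over 6 arrays and at -0.12 in replicates 1 and 2, and DSC3 at -0.08 (SE 0.05) and -0.11. DSC2 was at -0.06 (SE 0.07). DSG1 and DSC1, the pair of the upper epidermal layers, were at -0.01 each (SE 0.06), with log2 signals below 5 on every array, and DSG4, known from the hair follicle, was at 0.08 (SE 0.07). The direction of small differences depended on the scaling. After quantile normalization 6 desmosome genes were above 0 and 6 below, and after centring 1 was above and 11 below.

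Further genes of the 2 programs were counted from lists. Of 43 other genes of the envelope and late differentiation measured, 0 passed the adjusted threshold over 6 arrays. At an unadjusted p under 0.05, 10 were higher and 0 lower, beside 15.3% and 5.14% of all clusters and 17.2% and 5.95% of protein-coding clusters. In replicates 1 and 2, 1 passed the adjusted threshold. That was PRDM1 (BLIMP1), a transcriptional repressor that acts in the granular layer, with 7.02, 7.07 and 6.07 in the TM arrays, against 6.15, 6.06 and 7.28 in the control arrays. PRDM1 rose by 0.94 on the log2 scale there (SE 0.07, adjusted p = 0.0175), while over 6 arrays it was at 0.22 (adjusted p = 0.768). In replicates 1 and 2 its adjusted p was 0.0793 with a replicate block. With 1 of these 4 arrays left out its log2 fold change was 0.89 to 0.99. At an unadjusted p under 0.05 in replicates 1 and 2, 16 were higher and 1, hornerin (HRNR), was lower. The shares beside them were 14.8% and 12.1% of all clusters and 18% and 9.96% of protein-coding clusters. The protease inhibitor cystatin A (CSTA) was at 0.40 (SE 0.08, adjusted p = 0.0701) and suprabasin (SBSN) at 0.27 (SE 0.06, adjusted p = 0.0861). HRNR was at -0.26 (SE 0.10, adjusted p = 0.167), SERPINB4 at -0.23 (SE 0.13) and SERPINB3 at -0.19 (SE 0.13). SBSN had 5.91, 5.95 and 5.92 in the TM arrays, against 5.62, 5.70 and 5.77 in the control arrays, with no overlap, whereas in CSTA (7.15, 7.27 and 6.71 in the TM arrays, against 6.88, 6.74 and 7.35 in the control arrays) the array labelled control 3 was the highest.

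Of 23 further junction genes measured, 0 passed the adjusted threshold over 6 arrays. At an unadjusted p under 0.05, 2 were higher and 0 lower, beside 15.3% and 5.14% of all clusters and 17.2% and 5.95% of protein-coding clusters. Of these 2, CDSN is also in the envelope list. In replicates 1 and 2, 6 were higher and 0 lower at that p, beside 14.8% and 12.1% of all clusters and 18% and 9.96% of protein-coding clusters. Claudin 1 (CLDN1), the barrier-forming claudin of epidermal tight junctions, was the 1 gene that passed the adjusted threshold there. It had 11.131, 11.005 and 10.460 in the TM arrays, against 10.555, 10.462 and 11.142 in the control arrays, and a log2 fold change of 0.56 (SE 0.08, adjusted p = 0.0481). With a replicate block its adjusted p was 0.0989. With 1 of the 4 arrays left out its log2 fold change was 0.50 to 0.62. Occludin (OCLN) was at 0.30 (SE 0.07, adjusted p = 0.0806) and TJP3 at 0.24 (SE 0.07, adjusted p = 0.111). The lower side held CLDN4 at -0.11 (SE 0.06), PKP4 at -0.08 (SE 0.06) and beta-catenin (CTNNB1) at -0.09 (SE 0.07), with adjusted p of 0.302, 0.416 and 0.418. In CLDN1 and OCLN, as in TGM1 and PRDM1, control 3 lay nearer to TM 1 and 2 than to control 1 and 2. Over the 65 members, 14 (21.5%) had control 3 as the highest control and TM 3 as the lowest TM array, beside 15.1% of all clusters and 25.03% of protein-coding clusters.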

How the data were processed

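For each of the 6 GeneChip HTA 2.0 arrays of SCC25 total RNA, the authors deposited a log2 value per transcript cluster. The submitters' processing notes name MAS5. How the values were background-corrected and normalized, and on which genome build the clusters were placed, is not given in the sources used here. No filter was applied, and all tests used the deposited values as they stand. The number of arrays limits the precision.

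Of the 67528 clusters, 23781 had 1 gene symbol in the array annotation, 1543 had several and 42204 had none. Symbols were matched to the RefSeq gene table of GRCh38.p14 (23777 found), which was used for names, classes and gene order. S100A7L2 and SPRR2C matched the rule by name and were left out as pseudogenes.

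The comparison of TM with control used limma (3.58.1, under R 4.3.3; lmFit and eBayes, two-sided) with Benjamini-Hochberg adjustment over all clusters at 0.05, and counts were also made at an unadjusted p under 0.05 with a fold change of at least 1.2, the thresholds of the study. The same fit was run on replicates 1 and 2 alone. The paper names no test for the arrays. Tested on simulated data for 67528 clusters, with 200 changed, the fit of 3 arrays against 3 recovered 96% of changes of 0.5 log2 units and 100% of changes of 1 log2 unit, and that of 2 against 2 recovered 80% and 99%.

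The members named with values are the 3 of each role with the highest mean signal, the 10 with the smallest p in each fit and the ends of each role by log2 fold change, and, of each further list, the 3 genes with the smallest p in each direction in replicates 1 and 2. Some genes of these lists and of the marker lists were not analysed here. A few further members are given beside them for their family. The members, the lists and the choice of replicates 1 and 2 were made with earlier results of these data known. Alternatives were quantile normalization, centring, clusters above the median signal, eBayes with trend and robust options, a replicate block, the mean of a gene's clusters, a fold change of at least 1.5 and leaving out each array. Promoter sequences are from RefSeq. Figures were drawn with matplotlib 3.10.9.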

Additional observations from a re-analysis of the deposited data

How the results depend on the processing

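Of the 10 members higher over 6 arrays at an unadjusted p under 0.05 with a fold change of at least 1.2, the count was 4 after quantile normalization, 2 after centring and 0 at a fold change of at least 1.5. It ranged from 2 (without TM 2) to 15 (without TM 3) when 1 array was left out, and was 6 without TM 1. Over 6 arrays, 0 members passed the adjusted threshold in every alternative of that set, against 3 higher in replicates 1 and 2 alone. In replicates 1 and 2, the fit of the clusters above the median signal, which holds 40 members, gave 9 higher and 1 lower. Of all its clusters 2708 were higher and 2869 lower, in place of 369 and 456 in the main fit. With trend and robust options eBayes likewise gave 9 and 1 members, beside 1860 clusters higher and 2711 lower. S100A2 was the lower one (adjusted p = 0.0422 and 0.0423). Quantile normalization gave 2 members higher, since TGM1 was then at an adjusted p of 0.0513, and centring gave 4, SPRR2B being added (adjusted p = 0.0456). Over all clusters 272 were higher and 330 lower after quantile normalization, and 563 and 1309 after centring. Leaving out 1 of the 4 arrays leaves a single array in a group, and no count is given for it. The causes were not tested.

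Deviations of same-numbered arrays from their group means correlated at -0.177, -0.311 and -0.534 for replicates 1, 2 and 3. TM 3 gave 0.287 and 0.397 with control 1 and 2, and control 3 gave 0.275 and 0.393 with TM 1 and 2. With 3 arrays a group and the replicate 3 labels in doubt, these values cannot decide whether the replicate numbers pair the samples. With a replicate block in replicates 1 and 2, 0 members passed (adjusted p = 0.0989 for LCE1A, 0.0991 for LCE1C and 0.107 for TGM1), and the clusters past the threshold numbered 28 in place of 825. With the block over 6 arrays 0 members passed.

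The role medians kept their sign except for S100A genes (-0.01) and the filaggrin family (-0.01) after centring, for the plaque genes after quantile normalization (0.03), without control 1 (0.01), without control 3 (0.03), without TM 3 (0.01) and in replicates 1 and 2 (0.07), and for the desmosomal cadherins without control 3 (0.01). After centring 39 members were above 0 and 26 below, the sign of 12 members changed, and the median of all clusters was -0.03 in place of 0.04. The median standard error of the members over 6 arrays was 0.07 on the log2 scale, with 3 arrays a group.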

Other observations

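The 5 listed genes with symbols that begin with S100 and that lie outside the S100A cluster gave 0 calls in either fit. Among them, S100PBP encodes a binding protein of S100P and is not itself an S100 gene. In replicates 1 and 2, S100P, a calcium-binding protein raised in several carcinomas, was at 0.24 on the log2 scale (SE 0.08, adjusted p = 0.143 by limma), with 5.90, 6.08 and 5.79 in the TM arrays, against 5.78, 5.72 and 5.72 in the control arrays. S100B was at 0.14 (SE 0.07) and S100Z at 0.10 (SE 0.11), while S100G was at -0.11 (SE 0.07) and S100PBP at -0.05 (SE 0.06).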
